A study of Mus musculus with 12 samples.

Results

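BAFF and APRIL are related cytokines of the tumour necrosis factor family, and 5 genes make up the ligands and receptors described here. Tnfsf13b encodes BAFF and Tnfsf13 encodes APRIL. Tnfrsf13c encodes the BAFF receptor (BAFF-R), Tnfrsf13b encodes TACI and Tnfrsf17 encodes BCMA. The genes were chosen by name and not by their levels, though with earlier results of these data known. All 5 were found among the 32245 gene symbols in 4 single-cell RNA matrices of mouse aorta.

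BAFF is made mainly by myeloid and stromal cells, and mature B cells need it, through BAFF-R, to survive. APRIL binds TACI and BCMA and not BAFF-R, and BCMA keeps plasma cells alive. TACI takes both ligands and is carried by activated, marginal zone and B-1 B cells.

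The study asked what methazolamide (MTZ), a carbonic anhydrase inhibitor, does to atherosclerosis. The mice of all groups were male C57BL/6J animals without the Apoe gene (ApoE-/-), 8 weeks old at the start. In the Healthy group a normal diet and saline were given for 24 weeks. The other groups ate a high-fat diet with 1% cholesterol and 10% fat for the same time. The AS group got saline, the MTZ-treated group got 25 mg/kg MTZ by gavage every other day from week 13 for 12 weeks, and the MTZ-preventive group got it for all 24 weeks. Each group held 18 mice, and the aortas of 6 were pooled into 1 library of 5′ single-cell RNA, with B and T cell receptor libraries from the same cells. The labels write the drug as methoxazolamide.

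After the cell limits and removal of simulated doublets, 11121 (Healthy), 2160 (AS), 6796 (MTZ-treated) and 14186 (MTZ-preventive) cells remained, with medians of 1298 to 1936 UMIs (counted RNA molecules). The AS library was the shallowest, with 3753498 UMIs against 15311332 to 33927275 in the others. Apoe, which these mice lack, stood at 714 UMIs per 1e6 UMIs (CPM) in the library labelled Healthy and at 8.84 to 13.1 in the other 3, so that library goes against its genotype label and every comparison with it carries this. Pairs of libraries shared 3.01% to 3.68% of the smaller library's barcodes. With 1 library per group no test between groups is possible. Intervals in brackets are 95% intervals that cover counting error only, and fewer cells of a type cannot be told apart from less RNA per cell where a level is given over all cells.

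Over all cells, the ligands were low, and the receptors were highest in the libraries with the most B cells. Tnfsf13b stood at 2.39 CPM (1.86 to 3.03, 69 UMIs) in the library labelled Healthy, 7.19 (4.74 to 10.5, 27 UMIs) in AS, 7.64 (6.32 to 9.16, 117 UMIs) in MTZ-treated and 10.8 (9.71 to 12, 366 UMIs) in MTZ-preventive. Tnfsf13 stood at 3.02 (2.42 to 3.72, 87 UMIs), 10.1 (7.16 to 13.9, 38 UMIs), 10.3 (8.71 to 12, 157 UMIs) and 3.63 CPM (3.01 to 4.33, 123 UMIs) in the same order. The ligands thus had different orders: BAFF RNA was highest in MTZ-preventive and lowest in Healthy, while APRIL RNA was high in AS and MTZ-treated and low in the other libraries. Tnfrsf13c stood at 45.7 (43.3 to 48.3, 1319 UMIs), 3.20 (1.65 to 5.58, 12 UMIs), 1.31 (0.798 to 2.02, 20 UMIs) and 16.5 CPM (15.2 to 18, 561 UMIs). Tnfrsf13b stood at 17.6 (16.1 to 19.2, 507 UMIs), 3.20 (1.65 to 5.58, 12 UMIs), 3.66 (2.76 to 4.75, 56 UMIs) and 5.98 CPM (5.19 to 6.87, 203 UMIs). Both receptors were highest in Healthy, next in MTZ-preventive and low in AS and MTZ-treated. Tnfrsf17 was nearly absent, with 20 UMIs in Healthy, 0 in AS (a count of 0 allows up to 0.799 CPM), 2 in MTZ-treated and 4 in MTZ-preventive.

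**Figure D1:**
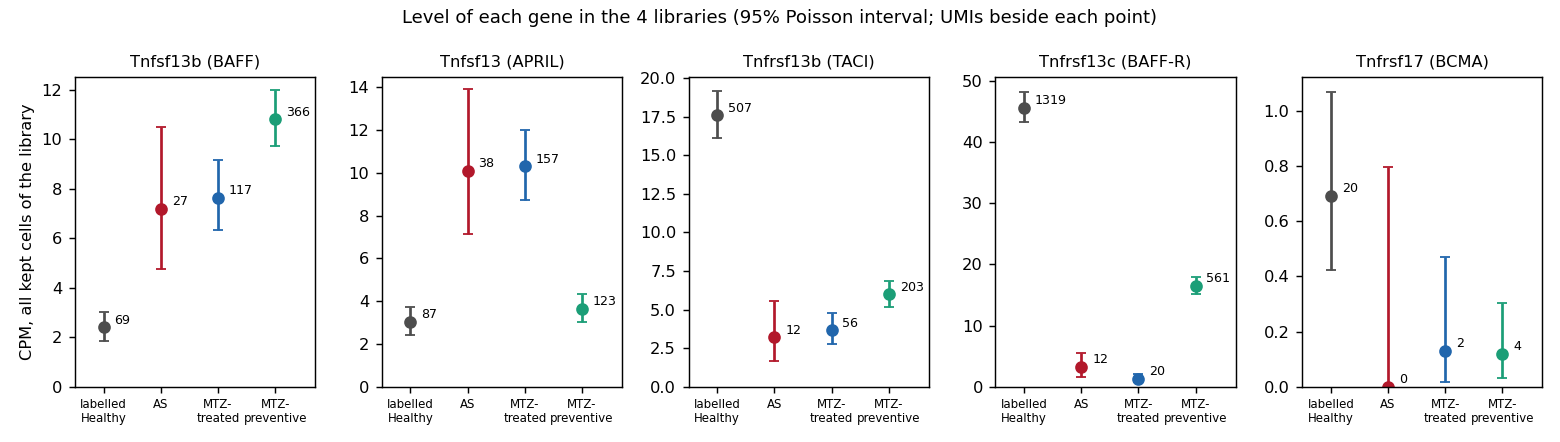
Level of each of the 5 genes in CPM over all kept cells (vertical axes) in the 4 libraries (horizontal axes), with exact Poisson 95% intervals and the number of UMIs beside each point; a count of 0 is drawn up to the limit of 3 counts. Tnfrsf13c runs from 1.31 in MTZ-treated to 45.7 in Healthy, while Tnfsf13b is highest in MTZ-preventive at 10.8.

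Against Healthy, the AS library had 3.01 times the Tnfsf13b level (1.85 to 4.75), 3.36 times the Tnfsf13 level (2.23 to 4.97), 0.182 times the Tnfrsf13b level (0.0933 to 0.320) and 0.0699 times the Tnfrsf13c level (0.0360 to 0.123). All 4 of these genes were past 2-fold, where 23.9% of the 11431 genes that reached 5 CPM in one or the other library were. Each of the 4 passed that 5 CPM minimum only through the library where it was high, the ligands through AS and the receptors through Healthy, so their count is not read against that share. Tnfrsf17 did not pass it in any comparison. MTZ-treated and AS did not differ beyond counting error in the ligands, with ratios of 1.06 (0.694 to 1.68) for Tnfsf13b and 1.01 (0.707 to 1.48) for Tnfsf13. Neither was past 2-fold, where 12.6% of genes were, and both receptors were below 5 CPM in both libraries. Tnfrsf13c was at 0.409 times the AS level in MTZ-treated (0.190 to 0.917, 20 against 12 UMIs) and Tnfrsf13b at 1.14 times (0.606 to 2.34). MTZ-preventive had 0.358 times the Tnfsf13 level of AS (0.247 to 0.530) and 5.17 times the Tnfrsf13c level (2.94 to 10.1). These were past 2-fold, where 9.62% of genes were, and each passed the minimum only through the library where it was high, while Tnfsf13b at 1.5 (1.01 to 2.31) and Tnfrsf13b at 1.87 (1.05 to 3.68) were not.

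These ratios mixed the cell make-up of the libraries with the level in each kind of cell. Cells were placed in 15 marker gates, a gate being a set of cells with a UMI of at least 3 markers of a cell type and more of them than of any other type. The B gate held 27.3% of cells in Healthy, 0.556% in the AS library, 0.942% in MTZ-treated and 7.11% in MTZ-preventive, and the macrophage gate held 0.423%, 6.99%, 2.27% and 0.261%. With the B, plasma and T gates left out of all libraries, the log2 ratio of AS to Healthy fell from 1.59 to 0.86 for Tnfsf13b and from 1.75 to 0.99 for Tnfsf13. It went from -2.46 to -1.03 for Tnfrsf13b, and for that gene MTZ-preventive against AS went from 0.90 to 0.06 on the log2 scale. That of AS to Healthy for Tnfrsf13c barely moved, from -3.84 to -3.92, on 3 against 204 UMIs. Of those 204 Healthy UMIs, 114 lay in cells that met no gate and 13 in cells tied between gates. Of 1648 kept Healthy barcodes with a heavy and a light B cell receptor chain, 1342 were in the B gate. Leaving out the gate thus did not leave out all B cells. No member is a gate marker, and a gate with under 50 cells is given by its counts.

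The genes lie apart on mouse chromosomes 8, 11, 15 and 16, in build GRCm38.p6 of the RefSeq annotation. Tnfsf13b (ENSMUSG00000031497) is at chr8:10006229-10036000, Tnfrsf13c (ENSMUSG00000068105) at chr15:82221742-82224380 and Tnfrsf17 (ENSMUSG00000022496) at chr16:11313232-11320074. Tnfrsf13b (ENSMUSG00000010142) at chr11:61126283-61153170 and Tnfsf13 (ENSMUSG00000089669) at chr11:69682577-69685554 share a chromosome. Tnfsf13 lies whole inside the antisense gene Tnfsf13os and inside a readthrough transcript, Tnfsfm13, that is not a feature of the matrices. Tnfsf13os had 9, 1, 13 and 15 UMIs in Healthy, AS, MTZ-treated and MTZ-preventive, and how reads of the overlap were assigned was not tested.

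The 250 bases before each start in the RefSeq promoter table (2 for Tnfsf13b, 1 for each other member) were searched for 7 motifs on both strands, since the members differed so much in the cells that held them. The octamer ATGCAAAT, which B cell factors bind, is in 1.60% of the 32851 RefSeq promoter windows of this length, the EBF motif (TCCC, any 2 bases, GGGA) in 0.779%, the E-box CAGGTG in 17.2%, the PU.1 motif GAGGAAGT in 2.44%, the NF-kB motif (GGGA, any 2 bases, TTCC) in 1.21%, the interferon regulatory factor (IRF) motif (GAAA, any 2 bases, GAAA) in 2.98% and TATAAA in 12.4%. The starts of Tnfsf13b, Tnfrsf13b and Tnfrsf17 in that table lie inside the gene intervals given above. The windows of Tnfsf13 and Tnfrsf13b held none of these letters. The window of Tnfrsf13c, the receptor gene most tied to the B gate below, is shown whole, with its E-box in capitals 96 bases before the start (chr15:82224381-82224630, minus strand).
Tnfrsf13c: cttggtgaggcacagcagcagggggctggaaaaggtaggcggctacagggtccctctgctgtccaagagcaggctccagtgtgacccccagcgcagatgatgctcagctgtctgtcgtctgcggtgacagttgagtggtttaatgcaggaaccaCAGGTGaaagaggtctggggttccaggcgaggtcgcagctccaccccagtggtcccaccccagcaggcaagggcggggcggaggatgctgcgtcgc
Stretches of 30 bases are shown for the ligand gene of the fibroblast gate and for the receptor gene of the plasma gate, with matches in capitals. That of Tnfsf13b (chr8:10006603-10006632, plus strand) holds an IRF match 16 bases before the downstream of its 2 starts, and the window of the other start held no match. That of Tnfrsf17 (chr16:11313691-11313720, plus strand) holds TATAAA 114 bases and an IRF match on the opposite strand 101 bases before its start in the table.
Tnfsf13b: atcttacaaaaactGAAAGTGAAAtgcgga
Tnfrsf17: cctcTATAAAtaggtggTTTCTGTTTCagg
A match is a description of the letters and not of a bound site.

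The fibroblast gate held the largest share of BAFF RNA in every library, and most of it in all but AS. This gate held 73.9% of the Tnfsf13b UMIs of Healthy (61.9% to 83.7%), 44.4% of those of AS (25.5% to 64.7%), 70.1% of those of MTZ-treated (60.9% to 78.2%) and 70.8% of those of MTZ-preventive (65.8% to 75.4%). The gate itself held 1642, 310, 1995 and 3551 cells, and Clec3b, an adventitial fibroblast marker, had a UMI in 67.4% to 90.1% of them. Clec3b is one of the markers that define the gate, so its share is no separate evidence of identity. Pdgfra, another of them, had a UMI in 19.6% to 25.5%. In AS the macrophage gate held a further 25.9% of Tnfsf13b UMIs.

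**Figure D2:**
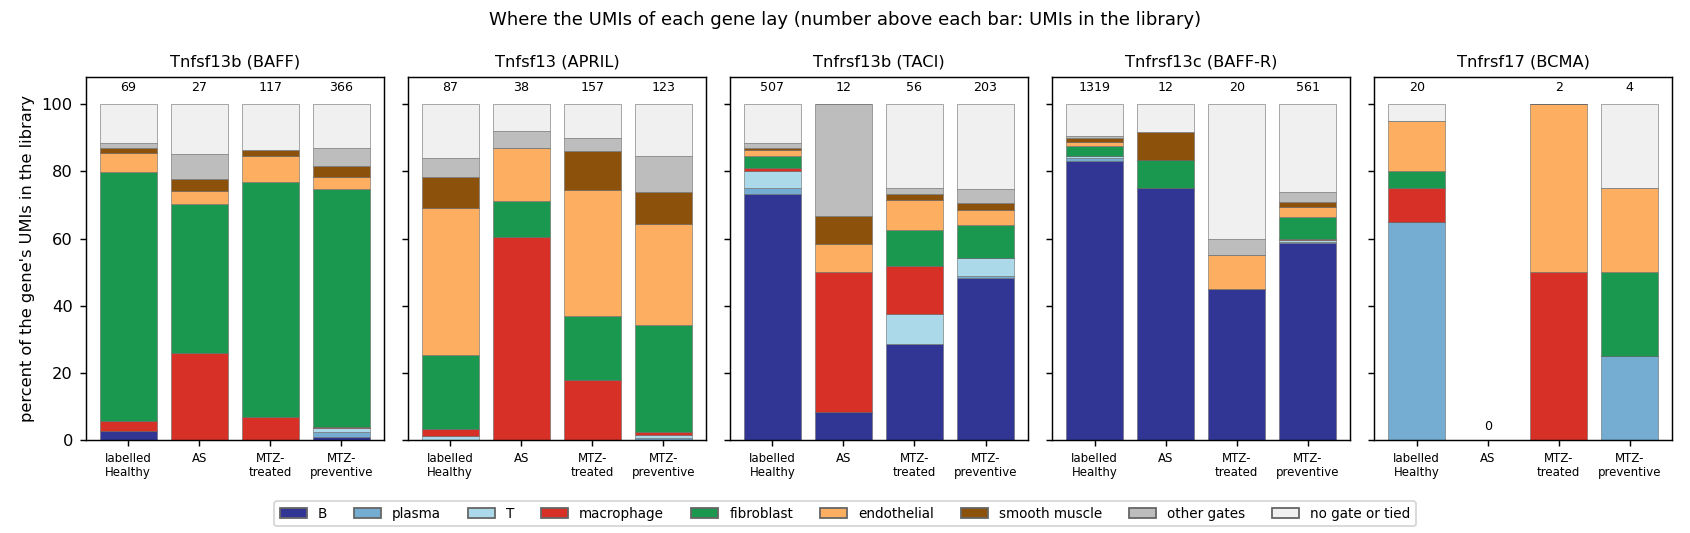
Share of each gene's UMIs in percent (vertical axes) held by the marker gates in each library (horizontal axes), as stacked bars with the lymphatic gate counted as endothelial and the number of UMIs above. The fibroblast gate holds the largest share of Tnfsf13b in each library (44.4% to 73.9%), while Tnfrsf13c and Tnfrsf13b are mostly in the B gate in Healthy (83.1% and 73.2%).

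Within the fibroblast gate, Tnfsf13b stood at 11.4 CPM in Healthy (8.48 to 15.0, 51 UMIs), 18.2 in AS (9.42 to 31.8, 12 UMIs), 15.8 in MTZ-treated (12.5 to 19.6, 82 UMIs) and 27.7 in MTZ-preventive (24.4 to 31.2, 259 UMIs). Fibroblasts of MTZ-preventive had 2.43 times the level of Healthy (1.79 to 3.34) and 1.75 times that of MTZ-treated (1.36 to 2.28). The ratio to AS was 1.52 (0.853 to 2.97), and that of AS to Healthy was 1.60 (0.776 to 3.04), so the place of AS in this order could not be set at its depth. After each cell was thinned to 1000 UMIs, 0.974%, 2.26%, 1.40% and 2.37% of fibroblast gate cells had a Tnfsf13b UMI, against 2.56%, 3.23%, 3.66% and 6.08% unthinned. In the B gate, which should lack the ligand, the thinned share was 0.0329% in Healthy and 0.0992% in MTZ-preventive, at median depths of 1940.5 and 1658 UMIs against 1628 and 1736 in fibroblasts. Between AS and Healthy, 21.5% of the 10929 genes measured in the fibroblast gate were past 2-fold, between MTZ-treated and AS 15.0%, and between MTZ-preventive and AS 14.7%. Tnfsf13b was not past 2-fold in any of these comparisons. For MTZ-preventive against Healthy, where it was past 2-fold, the share of all genes was not taken.

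The fibroblast gate differed between the libraries in the share of its cells with UMIs of some other genes. Cells with a UMI of at least 2 of Prg4, Serpina3n, Cyp2e1, Hp and Cxcl13, genes chosen after their values were seen, made up 1.71% of it in Healthy, 59.7% in the AS library, 13.7% in MTZ-treated and 60.5% in MTZ-preventive. In the remaining fibroblasts, with under 2 of these genes, Tnfsf13b stood at 11.5 CPM in Healthy (8.56 to 15.2, 50 UMIs), 13.5 in AS (2.79 to 39.5, 3 UMIs), 14.4 in MTZ-treated (11.0 to 18.6, 59 UMIs) and 22.5 in MTZ-preventive (17.8 to 28.0, 79 UMIs). MTZ-preventive was again above Healthy, by 1.95 times (1.35 to 2.84), and above MTZ-treated, by 1.56 times (1.10 to 2.22). In cells with at least 2 of the genes the level was 20.6 in AS (9 UMIs), 20.6 in MTZ-treated (23 UMIs) and 30.7 in MTZ-preventive (26.4 to 35.6, 180 UMIs), with 1 UMI in Healthy. The split was not thinned, and these cells were deeper than the rest in each library. Their medians were 4326 against 1620.5 UMIs in Healthy and 1741 against 1714 in MTZ-preventive. Whether the split parts kinds of cells, a change within cells or free RNA was not tested.

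Macrophages could not be set apart from fibroblasts in their BAFF RNA level. Tnfsf13b stood in the macrophage gate at 25.5 CPM in AS (10.2 to 52.5, 7 UMIs) and 21.2 in MTZ-treated (9.14 to 41.7, 8 UMIs), which was 1.40 (0.466 to 3.85) and 1.34 (0.561 to 2.77) times the fibroblast level. Healthy and MTZ-preventive had 2 Tnfsf13b UMIs each, in 47 and 37 macrophage gate cells. Endothelial cells, the other large population of the wall, had little: 0.960 CPM in Healthy, 1.12 in the AS library, 2.21 in MTZ-treated and 2.27 in MTZ-preventive. The fibroblast level was 11.9 times the endothelial level in Healthy (3.84 to 59.4), 7.13 times in MTZ-treated (3.58 to 16.1) and 12.2 times in MTZ-preventive (6.98 to 23.1). Smooth muscle cells had 0.264 CPM in Healthy, 5.25 in AS (0.133 to 29.3, 1 UMI), 0.836 in MTZ-treated and 3.15 in MTZ-preventive (12 UMIs). In AS the fibroblast level was 3.47 times that of smooth muscle (0.514 to 148), so these gates could not be set apart there. Lymphocytes held few: the B gate had 2, 0, 0 and 4 Tnfsf13b UMIs in the 4 libraries, the last 4 in 1 cell. The T gate had 0, 0, 0 and 4, the last at 2.03 CPM. The 8 plasma gate cells of MTZ-preventive had 5, in 1 cell.

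**Figure D3:**
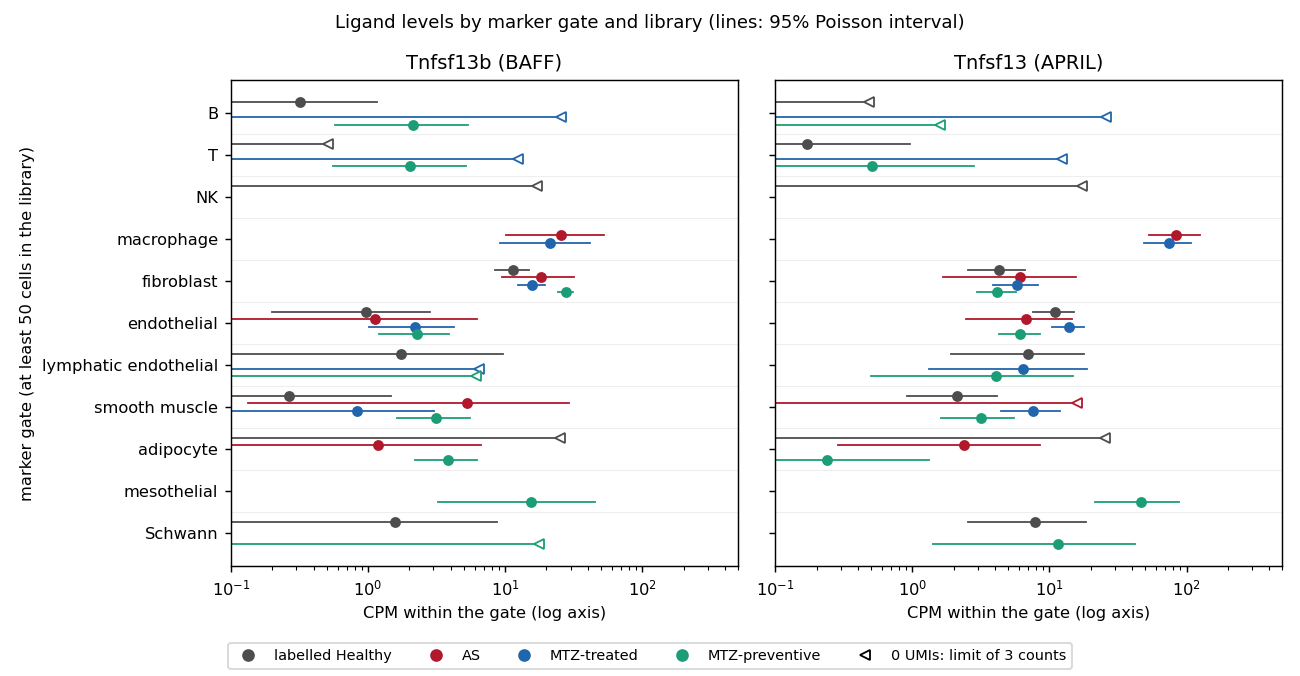
Level of Tnfsf13b and Tnfsf13 in CPM within each marker gate of at least 50 cells (log axis), by library, with exact Poisson 95% intervals; open triangles mark gates with 0 UMIs at the limit of 3 counts. Tnfsf13b is highest in the fibroblast and macrophage gates, and Tnfsf13 in the macrophage gates of AS (83.8) and MTZ-treated (74.1).

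APRIL RNA had its highest level in macrophages, in the libraries with enough of them to give one, while endothelial cells held more of its UMIs than macrophages in 3 of 4 libraries. Tnfsf13 stood in the macrophage gate at 83.8 CPM in AS (53.1 to 126, 23 UMIs) and 74.1 in MTZ-treated (49.3 to 107, 28 UMIs), a ratio of 0.885 (0.492 to 1.61) of MTZ-treated to AS. In AS these 151 cells held 60.5% of all Tnfsf13 UMIs (43.4% to 76.0%), and in MTZ-treated 154 cells held 17.8%. The macrophage gate held 2.30% in Healthy and 0.813% in MTZ-preventive, and the endothelial gate held 39.1% in Healthy, 15.8% in the AS library, 35.7% in MTZ-treated and 28.5% in MTZ-preventive. Healthy had 2 Tnfsf13 UMIs in 47 macrophage gate cells and MTZ-preventive had 1 in 37, too few for a level. The complement gene C1qb had a UMI in 89.4% to 93.5% of these gates, and the macrophage elastase gene Mmp12 in 2.13% in Healthy, 60.9% in the AS library, 9.74% in MTZ-treated and 5.41% in MTZ-preventive. Both are among the markers that define the gate, so their shares are no separate evidence of identity. Adgre1, another of them, had a UMI in 12.6% to 21.6%. In macrophages with a UMI of Trem2 or Mmp12, markers of lipid-laden macrophages, Tnfsf13 stood at 91.5 CPM in AS (57.3 to 138, 127 cells) and 86.4 in MTZ-treated (55.9 to 128, 95 cells). Those without either had 1 UMI in 24 cells of AS and 33.9 CPM (6.99 to 99.1, 3 UMIs in 59 cells) in MTZ-treated. This split was made after the values were seen.

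Endothelial cells had the highest APRIL level in Healthy, the next after macrophages in AS and MTZ-treated, and the third in MTZ-preventive, after the mesothelial and Schwann gates. In all 4 libraries its interval overlapped that of the gate next below. Tnfsf13 stood in the endothelial gate at 10.9 CPM in Healthy (7.54 to 15.2, 34 UMIs), 6.74 in AS (6 UMIs), 13.8 in MTZ-treated (10.4 to 17.9, 56 UMIs) and 6.12 in MTZ-preventive (4.27 to 8.52, 35 UMIs). MTZ-preventive was below MTZ-treated, at 0.445 times (0.283 to 0.691), and below Healthy, at 0.563 times (0.341 to 0.930), and AS could not be set apart from any of them. The macrophage level was 12.4 times the endothelial one in AS (4.92 to 37.3) and 5.39 times in MTZ-treated (3.30 to 8.63). The fibroblast gate lay lower than the endothelial gate in Healthy, where endothelial cells had 2.56 times its level (1.42 to 4.76), and in MTZ-treated, where they had 2.39 times (1.5 to 3.85). In MTZ-preventive the ratio was 1.47 (0.905 to 2.38), with the fibroblast gate at 4.16 CPM and 31.7% of the Tnfsf13 UMIs. The highest level in MTZ-preventive was in 63 mesothelial gate cells, at 46.6 CPM (21.3 to 88.5), from 9 UMIs in 6 cells. Smooth muscle cells had 7.53 CPM in MTZ-treated (18 UMIs) against 2.11 in Healthy, a ratio of 3.57 (1.48 to 9.48). The B gate had 0 Tnfsf13 UMIs in every library, which allows up to 0.482 CPM in Healthy and 1.58 in MTZ-preventive.

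BAFF-R RNA was highest in B cells. Tnfrsf13c, the survival receptor for BAFF, stood in the B gate at 176 CPM in Healthy (166 to 187, 1096 UMIs), 77.1 in MTZ-treated (35.3 to 146, 9 UMIs in 64 cells) and 173 in MTZ-preventive (155 to 193, 329 UMIs), and the 12 B gate cells of AS had 9 UMIs. MTZ-preventive had 0.986 times the Healthy level (0.869 to 1.12), so the B gates of these libraries did not differ in Tnfrsf13c beyond counting error, although their levels over all cells were 16.5 and 45.7 CPM. MTZ-treated B gate cells had 0.438 times the Healthy level (0.200 to 0.835). After thinning to 1000 UMIs, 15.9%, 6.25% and 15.7% of B gate cells of Healthy, MTZ-treated and MTZ-preventive had a Tnfrsf13c UMI, against 28.4%, 12.5% and 25.4% unthinned. Cd79a, a part of the B cell receptor and one of the markers that define the gate, had a UMI in 95.3% to 97.9% of these gates. Pax5, another of them, had a UMI in 13.9% to 24.2%.

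Tnfrsf13c was low in the other named gates of at least 50 cells. Cells that met no gate stood at 38.2 CPM in Healthy (31.5 to 45.8, 114 UMIs), and cells tied between gates at 21.1. The cells of no gate held 8.64% of Tnfrsf13c UMIs in Healthy, 40.0% in MTZ-treated and 23.4% in MTZ-preventive. How many of these were B cells that missed the gate was not tested. The T gate stood at 1.54 CPM in Healthy and 2.03 in MTZ-preventive, and the B gate was 114 times (59.8 to 249.9) and 85.4 times (33.0 to 315) as high. Fibroblasts, which should lack the receptor, had 8.04 CPM in Healthy (36 UMIs), 1.52 in AS (1 UMI), 0 UMIs in MTZ-treated, which allows up to 0.577 CPM, and 3.95 in MTZ-preventive (37 UMIs). After thinning, 1.22% of fibroblasts in Healthy and 0.704% in MTZ-preventive had a Tnfrsf13c UMI, at median depths of 1628 and 1736 UMIs against 1940.5 and 1658 in the B gate. The part of free RNA in these values was not tested.

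**Figure D4:**
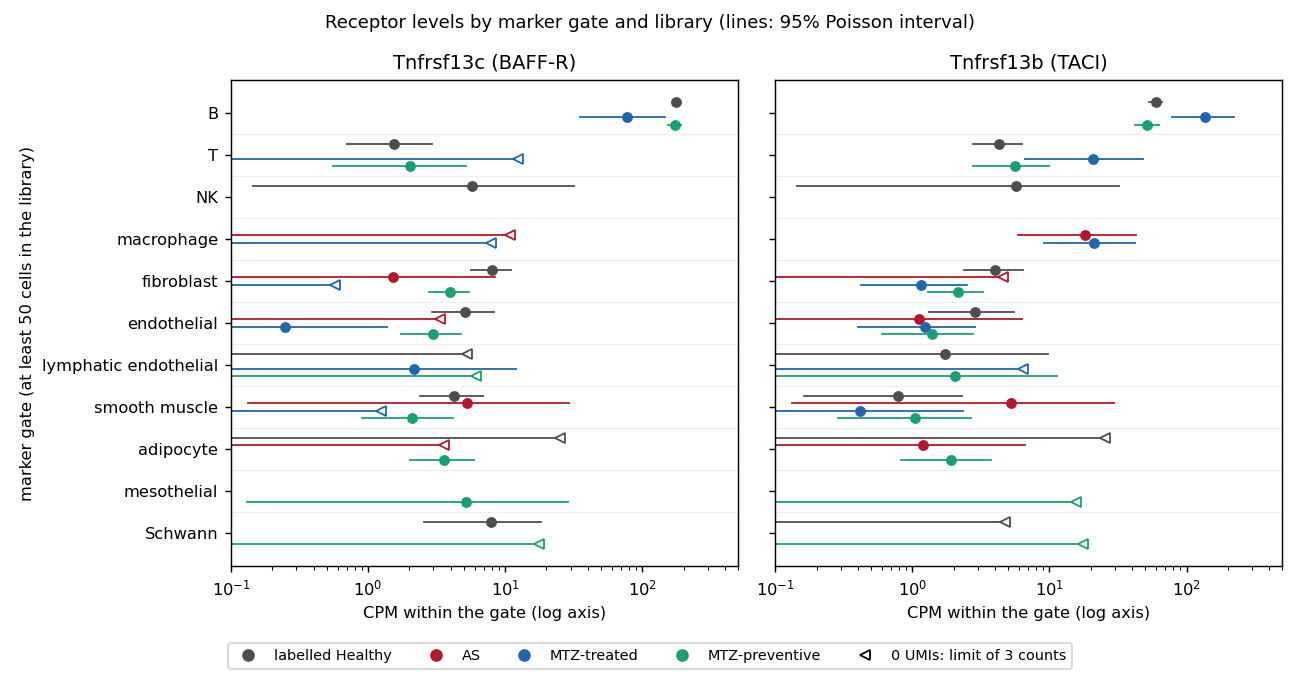
Level of Tnfrsf13c and Tnfrsf13b in CPM within each marker gate of at least 50 cells (log axis), by library, with exact Poisson 95% intervals; open triangles mark gates with 0 UMIs at the limit of 3 counts. Tnfrsf13c in the B gate is at 176 in Healthy and 173 in MTZ-preventive, and Tnfrsf13b is seen in the macrophage gate as well as the B gate.

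TACI RNA was less concentrated in the B gate than BAFF-R RNA. Tnfrsf13b stood in the B gate at 59.5 CPM in Healthy (53.6 to 65.9, 371 UMIs), 137 in MTZ-treated (78.4 to 223, 16 UMIs in 11 of 64 cells) and 51.7 in MTZ-preventive (41.9 to 63.0, 98 UMIs), with 1 UMI in the AS gate. MTZ-preventive had 0.867 times the Healthy level (0.687 to 1.09), and MTZ-treated had 2.30 times (1.30 to 3.79). By summed UMIs the few B gate cells of MTZ-treated thus had more TACI and less BAFF-R RNA than those of Healthy, on 25 UMIs in all. After thinning, 12.5% of them (5.55% to 23.2%) had a Tnfrsf13b UMI, against 6.23% in Healthy (5.39% to 7.14%). For Tnfrsf13c the shares were 6.25% (1.73% to 15.2%) and 15.9% (14.6% to 17.2%). The intervals of the libraries overlapped for both genes, so the shares of cells did not set these B gates apart. The B gate held 73.2% of Tnfrsf13b UMIs in Healthy, 28.6% in MTZ-treated and 48.3% in MTZ-preventive, against 83.1%, 45.0% and 58.6% of Tnfrsf13c UMIs. Cells that met no gate held 10.5%, 16.1% and 21.7% of Tnfrsf13b UMIs in these libraries.

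Macrophages carried Tnfrsf13b UMIs and no Tnfrsf13c UMIs in AS and MTZ-treated. Tnfrsf13b stood in the macrophage gate at 18.2 CPM in AS (5.91 to 42.5, 5 UMIs) and 21.2 in MTZ-treated (9.14 to 41.7, 8 UMIs), and 47 macrophage gate cells of Healthy held 4 UMIs. In AS this gate held 41.7% of the 12 Tnfrsf13b UMIs (15.2% to 72.3%), where the B gate held 8.33%. Tnfrsf13c had 0 UMIs in the same gates of AS, which allows up to 10.9 CPM, and of MTZ-treated, which allows up to 7.94. The macrophage level of Tnfrsf13b in MTZ-treated was 18.4 times the fibroblast level (5.59 to 64.2). None of the 5 AS and 8 MTZ-treated macrophages with a Tnfrsf13b UMI had a UMI of a B gate marker, which 3.97% and 3.90% of the macrophages of those libraries had. In Healthy 1 of 4 had one, where 44.7% of macrophages did. At these shares, counts of so few cells set nothing apart. Dendritic gate cells of Healthy, 10 in number, held 5 Tnfrsf13b UMIs in 3 cells.

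The T gate held Tnfrsf13b at 4.29 CPM in Healthy (25 UMIs), 5.59 in MTZ-preventive (11 UMIs) and 20.6 in MTZ-treated (5 UMIs in 3 cells). The B gate was 13.9 (9.26 to 21.7), 9.25 (4.95 to 19.1) and 6.67 (2.33 to 23.3) times as high. In Healthy the T gate level was 1.07 times that of fibroblasts (0.559 to 2.07), although the T gate and fibroblasts differed in their receptor mix. In MTZ-preventive it was 2.62 times (1.13 to 5.73) and in MTZ-treated 17.8 times (4.30 to 70.1). None of the 11 T gate cells with a Tnfrsf13b UMI in MTZ-preventive had a B marker UMI, where 6.39% of all its T gate cells did, so 0 of 11 sets nothing apart. In Healthy 5 of 23 did, where 10.6% of T gate cells did.

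The mix of the 2 receptors differed between gates, as Tnfrsf13b UMIs over those of both genes. Tnfrsf13b made up 25.3% of these UMIs in the B gate of Healthy (23.1% to 27.6%) and 23.0% in that of MTZ-preventive (19.0% to 27.2%), and 64.0% in that of MTZ-treated (42.5% to 82.0%). In the T gate it was 73.5% in Healthy (55.6% to 87.1%) and 73.3% in MTZ-preventive (44.9% to 92.2%), above the B gate in both. In fibroblasts it was 33.3% in Healthy (21.1% to 47.5%) and 35.1% in MTZ-preventive (22.9% to 48.9%), with intervals that overlapped those of the B gate. In MTZ-treated, where Tnfrsf13b made up 73.7% over all cells, all 8 such UMIs of the macrophage gate (63.1% to 100%) were of Tnfrsf13b, but so were all 6 of the fibroblast gate (54.1% to 100%) and 5 of 6 of the endothelial gate, so the macrophage mix did not stand apart there. All 5 in the AS macrophages were of Tnfrsf13b, 4 of 6 in those of Healthy and 0 of 1 in those of MTZ-preventive.

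**Figure D5:**
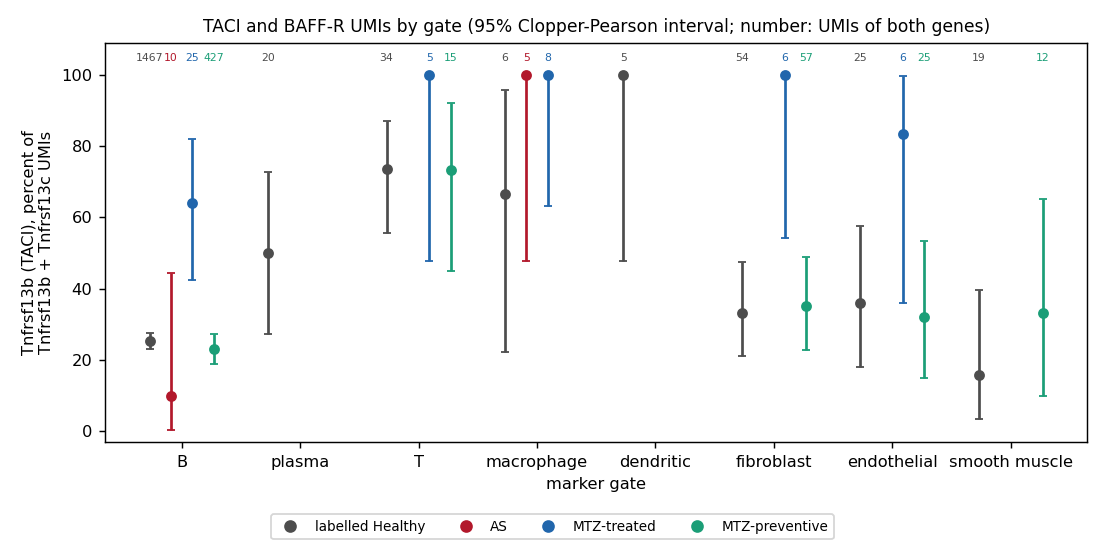
Tnfrsf13b UMIs as a percentage of Tnfrsf13b and Tnfrsf13c UMIs together (axis from 0 to 100) within marker gates, by library, with Clopper-Pearson 95% intervals. The B gates of Healthy and MTZ-preventive lie at 25.3% and 23.0%, the T gates at 73.5% and 73.3%, and the macrophage gate of MTZ-treated at 100%.

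Most BCMA RNA counted in Healthy was in plasma cells. In Healthy, 27 plasma gate cells held 13 of the 20 Tnfrsf17 UMIs (65.0%, 40.8% to 84.6%), in 6 cells. Jchain, which joins secreted antibodies, had a UMI in 96.3% of these cells and Mzb1 in 92.6%. Both are among the markers that define the gate, and Prdm1, another of them, had a UMI in 25.9%. The 3036 B gate cells of the same library had 0 Tnfrsf17 UMIs, which allows up to 0.482 CPM. The other Tnfrsf17 UMIs of Healthy lay in the endothelial gate (3), the macrophage gate (2), the fibroblast gate (1) and cells tied between gates (1). Of those in the endothelial, macrophage and fibroblast gates, 4 UMIs were in 4 barcodes with a heavy and a light B cell receptor chain. Whether these barcodes were B lineage cells placed in another gate was not tested. MTZ-preventive had 1 of its 4 Tnfrsf17 UMIs in 8 plasma gate cells, and AS had no plasma gate cell. The 2 Tnfrsf17 UMIs of MTZ-treated lay in the macrophage and endothelial gates. The plasma gate of Healthy also held 10 UMIs each of Tnfrsf13b and Tnfrsf13c. Tnfrsf13b thus made up 50% of the UMIs of both genes there (27.2% to 72.8%), an interval that just reached that of the B gate.

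B cells were also found without marker genes, as barcodes with a heavy and a light B cell receptor chain. There were 2469 (Healthy), 278 (AS), 124 (MTZ-treated) and 1069 (MTZ-preventive) of these, and 2417, 29, 70 and 1016 were in the matrices. Most of those of AS were thus not in its matrix, and the reason was not tested. The kept cells among them were 1648 (Healthy), 14 (AS), 30 (MTZ-treated) and 721 (MTZ-preventive), and 81.4%, 42.9%, 63.3% and 66.7% of these kept cells were in the B gate. Tnfrsf13c stood at 162 CPM in them in Healthy (149 to 175) and 152 in MTZ-preventive (132 to 173). Tnfrsf13b stood at 54.4 (47.1 to 62.6) and 44.9 (34.6 to 57.3). The levels of both libraries again overlapped. MTZ-treated had 4 Tnfrsf13c UMIs (66.9 CPM, 18.2 to 171) and 5 Tnfrsf13b UMIs (83.6 CPM, 27.1 to 195) in 30 cells. Both intervals overlapped those of Healthy, so the difference seen between the B gates of these libraries could not be set here. Tnfrsf17 had 18 UMIs in 11 of these barcodes in Healthy, 15 with an IgM or IgD chain and 3 with a switched chain. Barcodes with switched chains in Healthy were 102, of which 5 were in the B gate and 65 in other named gates, and they held 3 Tnfrsf13c UMIs. Barcodes with both T cell receptor chains stood at 1.53 CPM of Tnfrsf13c (3 UMIs) and 5.62 of Tnfrsf13b (11 UMIs) in Healthy.

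Among B gate cells of Healthy the receptors had overlapping intervals in the subsets that could be told by a marker. Overlap of separate intervals does not by itself show equal levels. Tnfrsf13c stood at 202 CPM (181 to 225) in 798 cells with a UMI of the follicular gene Fcer2a and none of Cr2 or Dtx1, and at 164 (143 to 186) in 638 cells with the marginal zone genes Cr2 or Dtx1. These intervals overlapped only from 181 to 186, and no ratio between subsets was taken. In 101 cells with Zbtb32, Bhlhe41 or Cd5, genes of B-1 cells, and without Fcer2a it stood at 129.7 (88.2 to 184), an interval that overlapped the follicular one by a few CPM. Cells with Cr2 or Dtx1 were not left out of this B-1 subset, so it was not kept apart from the marginal zone one. Cells with Fcer2a were likewise not left out of the Cr2 or Dtx1 subset, so that subset can hold follicular cells. Tnfrsf13b stood at 64.6 (52.8 to 78.1), 54.7 and 79.5 (47.9 to 124) in the same subsets. In MTZ-preventive Tnfrsf13b stood at 32.0 (11.7 to 69.6) in Fcer2a cells and 86.6 (37.4 to 171) in 32 cells with B-1 genes, intervals that overlapped. Tnfrsf13c stood there at 181 (125 to 253), 175 (141 to 215) and 216 (132 to 334) in the follicular, marginal zone and B-1 subsets. These intervals overlapped too, and the B-1 subset was not the lowest, as it was in Healthy. The Fcer2a subset was not deeper than the B gate, at medians of 1937 against 1940.5 UMIs in Healthy and 1600.5 against 1658 in MTZ-preventive. The Cr2 or Dtx1 subset (2128 and 1765) and the B-1 subset (2066 and 2239.5) were deeper.

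Genes that work beside these ligands and receptors were taken from 4 lists of 43 genes, read against all genes that passed the same minimum. Of the 16 signal transducers listed (among them TRAF adaptors, IAP ligases and NF-kB subunits) 15 were measured, and 5 of these were over 2-fold lower in AS than in Healthy and 0 higher, where 14.3% of all genes were lower and 9.64% higher. These were Birc2 (log2 ratio -1.49), Nfkb1 (-1.06), Tnfaip3 (-1.81), Traf3 (-1.11) and Traf5 (-1.11), named after their values were seen, and the median of the list was -0.55 against -0.10 for all genes. All 5 stood higher in the B and T gates than in the endothelial and fibroblast gates, as Birc2 did (88.9 and 102 against 33.0 and 25.1 CPM). The B and T gates fell from 27.3% and 17.2% of cells in Healthy to 0.556% each in AS. A change within cells was not tested. Between MTZ-treated and AS 0 of the 15 were past 2-fold, where 6.34% of genes were higher and 6.29% lower, and the median was -0.44 against 0.06. Between MTZ-preventive and AS Tnfaip3, the NF-kB brake A20, was higher (1.13), where 6.06% were higher and 3.56% lower, and the median was 0.39 against 0.08. Tnfaip3 had the highest B gate level of its list, at 333 CPM over all libraries, but the T gate stood higher at 749.8.

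Of 11 genes for ligand release and heparan sulphate binding, which APRIL uses, 1 was past 2-fold in each comparison, near or below the 23.9%, 12.6% and 9.62% of all genes. Sdc3, a syndecan, was higher in AS than in Healthy (log2 ratio 1.69) and lower in MTZ-preventive than in AS (-1.93), and Sdc2 was higher in MTZ-treated than in AS (1.12). The medians of this list were 0.12 for AS against Healthy, and -0.09 and -0.07 for the treated and the preventive library against AS, beside -0.10, 0.06 and 0.08 for all genes. Sdc4 had the highest B gate level of the list, at 209.6 CPM, but the adipocyte (344) and smooth muscle (261) gates stood higher. Of 6 survival genes, Bcl2 (-1.79) and Pim2 (-2.84), were lower in AS than in Healthy and higher in MTZ-preventive than in AS (1.07 and 1.47), where 14.3% and 6.06% of all genes were. Both stood higher in the T gate (80.6 and 103 CPM) than in the B gate (48.4 and 66.9), and these gates fell from 17.2% and 27.3% of cells in Healthy to 0.556% each in AS. Within the B gate Pim2 stood at 67.7 CPM in Healthy, 94.3 in MTZ-treated and 62.7 in MTZ-preventive. Between MTZ-treated and AS 0 of the 6 were past 2-fold, and the medians in the 3 comparisons were -0.36, -0.46 and -0.04, beside -0.10, 0.06 and 0.08 for all genes. Mcl1 had the highest B gate level of the survival genes, at 884 CPM. Among neighbouring family members, Cd40 (-2.17), Cd40lg (-3.67), Lta (-3.39) and Ltb (-3.43) were lower in AS than in Healthy, and Tnfsf14 (1.36) and Ltbr (1.04) higher, of 9 measured. Of 7 measured between MTZ-preventive and AS, Cd40 (1.03) and Ltb (1.86) were higher and Tnfsf14 (-1.41) lower, and Tnfsf14 (-3.03) was the 1 of 7 past 2-fold between MTZ-treated and AS. The medians of this list were 0.24, 0.12 and 0.15 for AS against Healthy and for MTZ-treated and MTZ-preventive against AS, beside -0.10, 0.06 and 0.08 for all genes. The 6 of 9, 1 of 7 and 3 of 7 past 2-fold stand beside 23.9%, 12.6% and 9.62% of all genes. Most of them passed the minimum only through the library where they were high. These were Cd40, Cd40lg, Lta and Tnfsf14 between AS and Healthy, and Tnfsf14 between MTZ-treated and AS. Between MTZ-preventive and AS they were Cd40 and Tnfsf14. The counts are therefore not read against those shares. Ltb, a lymphotoxin, had the highest B gate level of the list, at 323 CPM, but the T gate stood higher at 382. Tnfsf14, which encodes LIGHT, was the 1 gene of the lists past 2-fold in all 3 comparisons, at 2.08, 5.33, 0.653 and 2.0 CPM in Healthy, AS, MTZ-treated and MTZ-preventive. It passed the minimum only through the AS library (20 UMIs), and with no minimum Cd40lg (-3.67, 1.62 and 3.07) was past 2-fold in all 3 as well. The comparisons with AS share its library.

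Genes with the pattern most like each member were ranked over 30 gate and library sums in 11 gates, among 12558 genes, by Spearman correlation as a description. These points share libraries and differ in depth. Tnfrsf13c was nearest to H2-Eb2 (0.82), Fcrl1 (0.71), Mtmr4 (0.71), Tmem131l (0.70) and Bank1 (0.70), of which Bank1 is a B gate marker. Tnfrsf13b was nearest to Dbf4 (0.88), Proscos (0.84), Fermt3 (0.82), St8sia4 (0.80) and Gmip (0.80). Tnfsf13b was nearest to Il1rl2 (0.83), Gjb5 (0.81), Ifi211 (0.79), Srpx2 (0.79) and Shisa9 (0.78). Tnfsf13 was nearest to Pcyox1 (0.84), Stard9 (0.84), Snx24 (0.83), B4galt6 (0.83) and Brk1 (0.83). The lists of the 4 genes did not share a gene, and Tnfrsf17 had too few UMIs to rank.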

How the data were processed

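The values are UMI counts per gene and cell, which the authors made with Cell Ranger 5.0.0 (per the file headers) against mm10 and deposited as 4 filtered matrices. The deposited B and T cell receptor tables gave chains per barcode, with UMI counts per contig. The matrices held 6908 to 23963 barcodes, the range the study gives for its cells. Cells were kept with over 200 genes, over 1000 UMIs, complexity (log10 genes over log10 UMIs) above 0.7, under 10% mitochondrial and under 5% red blood cell UMIs, which left 2199 to 16316. Doublets were called per library from 2 simulated doublets per cell and the top 0.8% per 1000 cells removed (39 to 2130 cells). UMIs of 38 repeated gene symbols were summed.

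UMIs were summed over cells and scaled to 1e6 (CPM). Levels have exact Poisson intervals, ratios exact conditional binomial intervals and shares Clopper-Pearson intervals (95%, counting error only). A count of 0 is given by the level that 3 counts would have. Gates used 145 markers, ties were left without a gate, and the lymphatic gate was endothelial cells with at least 3 lymphatic markers. Levels are given for gates of 50 cells or more. Promoter windows came from the RefSeq table of GRCm38.p6, whose primary chromosomes are those of mm10. Sums and intervals were made in Python 3.11.15 with pandas 2.3.3, numpy 2.4.6 and scipy 1.17.1, doublets with scikit-learn 1.9.0 and plots with matplotlib 3.10.9, and edgeR 4.0.16 in R 4.3.3 served for TMM scaling only. The ratio and gate steps were tested on simulated data.

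The members and lists were chosen with earlier results of these data known. Named genes are the 5 members, list genes past 2-fold in all 3 comparisons or highest in the B gate, and the 5 genes most correlated with each member that had at least 100 UMIs. Genes named outside that rule were chosen after their values were seen. Alternatives were 2 or 4 markers per gate, doublets kept, a looser cell filter (over 500 UMIs, under 20% mitochondrial UMIs), all barcodes, TMM scaling, totals without mitochondrial, ribosomal and haemoglobin genes, no B, plasma or T gates, other CPM minimums and contigs with at least 3 UMIs.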

Additional observations from a re-analysis of the deposited data

How the results depend on the processing

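With 1 library of 6 pooled aortas per group, no result has a replicate check, and a difference between libraries cannot be told apart from one between groups. AS was the shallowest library, its B gate held 12 cells, and its intervals were the widest. No paired analysis was possible because each group has 1 library.

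No log2 ratio past 1 in size changed sign. The 12 log2 ratios of members stayed within their intervals under TMM scaling, all barcodes, doublets kept, the looser cell filter and totals without mitochondrial, ribosomal and haemoglobin genes. Without the B, plasma and T gates, 8 of 12 did. The others became 0.86 for Tnfsf13b, 0.99 for Tnfsf13 and -1.03 for Tnfrsf13b in AS against Healthy, and 0.06 for Tnfrsf13b in MTZ-preventive against AS. In MTZ-treated against AS, the ratios of Tnfsf13 (0.02) and Tnfrsf13b (0.19) lay near 0 and changed sign under some settings, down to -0.11 and -0.34, within their intervals. Of the levels within gates, 16 were recomputed with 2 markers, doublets kept and the looser filter, and 14 with 4 markers, and these stayed in their intervals.

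Shares of UMIs by gate moved more. The fibroblast share of Tnfsf13b became 57.7% in Healthy, 56.3% in MTZ-treated and 63.2% in MTZ-preventive with the looser filter, and 63.4% in MTZ-preventive with 4 markers. The B gate share of Tnfrsf13c became 88.2% (2 markers), 71.2% (4 markers) and 70.6% (looser filter) in Healthy, and 70.9%, 40.5% and 47.6% in MTZ-preventive, with 52.5% there with doublets kept. That of Tnfrsf13b became 62.9% (4 markers) and 61.5% (looser filter) in Healthy, and 34.5%, 37.4% and, with doublets kept, 40.5% in MTZ-preventive.

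Of the splits added after seeing the data, Tnfsf13b was 20.6 CPM in MTZ-treated fibroblasts with at least 2 of the 5 genes and 22.5 in MTZ-preventive ones with under 2, and Tnfsf13 was 33.9 in MTZ-treated macrophages without Trem2 or Mmp12. With a minimum of 20 CPM, neighbouring family members past 2-fold went from 6 of 9 measured to 2 of 4 (AS against Healthy). They went from 1 of 7 to 0 of 3 (MTZ-treated against AS) and from 3 of 7 to 1 of 4 (MTZ-preventive against AS). Survival genes went from 2 of 6 to 1 of 5 in the last. With no minimum, neighbouring family members went from 1 of 7 to 2 of 10 (MTZ-treated against AS) and from 3 of 7 to 6 of 10 (MTZ-preventive against AS). The share of all genes at these minimums is not given, so the counts are not read against one.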
